A study of Mus musculus with 16 samples.

Results

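The genes described here are 36 genes of the dividing cell, taken from a fixed list of mouse symbols: 16 genes of DNA replication and entry into S phase, and 20 genes of G2 and mitosis. They are 36 of the 27179 genes in the count table of 15 mouse mammary tumors, and all 36 were found, passed the filter on low counts and are described. The rule uses gene names and no measured value. The S phase set holds Mcm2, Mcm3, Mcm4, Mcm5, Mcm6, Mcm7, Pcna, Gins2, Rrm1, Rrm2, Cdc6, Cdt1, Ccne1, Ccne2, E2f1 and Tyms. The mitotic set holds Mki67, Top2a, Ccnb1, Ccnb2, Cdk1, Aurka, Aurkb, Plk1, Bub1, Bub1b, Cdc20, Cenpe, Cenpf, Kif11, Kif20a, Tpx2, Birc5, Ube2c, Nusap1 and Ndc80.

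All tumors came from 1 Trp53 null mammary tumor family, called F, passed on as second-generation orthotopic transplants in BALB/cJ females aged 8 to 10 weeks. By this label the transplanted tumor cells of every group lack p53, and the family is a single tumor lineage. The label does not cover host cells, whose RNA is also part of bulk tumor tissue. Mice were randomised at a tumor volume of 65 to 100 mm3, and tumors were frozen 7 days after treatment. There were 5 groups of 3 tumors, 1 tumor per library. Sham mice received control immunoglobulin G (25 mg/kg, 3 times a week), and TGFbi mice were given the TGF beta inhibitor IPW-5371, a small molecule (20 mg/kg, daily). RT mice received 10 Gy to the tumor, TGFbi+RT mice received both, and the group named triple here had anti-PD-L1, which blocks an immune checkpoint ligand, added to both (10 mg/kg, weekly). The agents were started 24 hours before irradiation.

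Genes of S phase and of mitosis are switched on in waves as a cell commits to division. In resting cells, E2F factors bound by retinoblastoma family proteins and the DREAM complex keep both waves silent. When cyclin-dependent kinases inactivate those repressors, free E2F factors switch on the replication genes, and MuvB with B-Myb (Mybl2) and Foxm1 later switch on the mitotic genes through CHR elements, often beside CCAAT boxes bound by NF-Y. In a tumor, the summed RNA of both sets is widely used as a readout of how many cells are dividing. In bulk tissue such as this, fewer dividing cells and less RNA per dividing cell cannot be told apart.

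The promoters of the members carried these elements in different measure, which is shown first because the 2 sets are otherwise described side by side. RefSeq promoter windows on GRCm38.p6, from 250 bases before to 50 after a gene's start, were found for 30 of the 36 members: 13 S phase genes with 14 windows and 17 mitotic genes with 17 windows. No window was matched for Mcm4, Gins2, Ccne2, Aurkb, Kif20a and Tpx2. The words searched on both strands were an E2F type (TTTGGCGC, TTTCGCGC, TTTCCCGC or TTTGCCGC), a CHR type (TTTGAA or TTTAAA) and CCAAT. The E2F words can overlap one another where both strands match. The 6 stretches below end at the base before the start used for the window and run towards it, with the matched words in capitals. They were chosen after the matches were seen, as members in which the words are plain to read, with Mcm6, Cdc20, Plk1 and Mki67 also among the members with the smallest p in a comparison.
Mcm6: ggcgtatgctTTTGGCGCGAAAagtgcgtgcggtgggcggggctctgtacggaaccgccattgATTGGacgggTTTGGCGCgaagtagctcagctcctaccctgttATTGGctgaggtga
Mcm5: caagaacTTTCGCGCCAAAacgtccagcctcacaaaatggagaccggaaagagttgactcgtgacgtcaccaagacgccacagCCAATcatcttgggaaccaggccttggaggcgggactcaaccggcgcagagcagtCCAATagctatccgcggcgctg
Cdk1: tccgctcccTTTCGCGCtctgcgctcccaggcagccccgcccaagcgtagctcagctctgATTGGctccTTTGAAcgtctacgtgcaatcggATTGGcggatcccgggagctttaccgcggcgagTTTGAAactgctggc
Cdc20: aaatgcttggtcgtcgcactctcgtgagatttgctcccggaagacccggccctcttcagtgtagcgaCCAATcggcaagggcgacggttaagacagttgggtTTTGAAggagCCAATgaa
Plk1: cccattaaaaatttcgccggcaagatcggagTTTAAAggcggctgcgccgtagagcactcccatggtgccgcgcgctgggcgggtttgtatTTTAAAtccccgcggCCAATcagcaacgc
Mki67: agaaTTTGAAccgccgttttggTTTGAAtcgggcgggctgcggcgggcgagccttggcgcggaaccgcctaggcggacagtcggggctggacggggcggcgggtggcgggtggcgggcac

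Mcm6 lies on the minus strand of chromosome 1, and its stretch is chr1:128359706-128359825. The capitals in Mcm6 mark an overlapping pair of E2F words, a further E2F word and a pair of CCAAT boxes read on the other strand as ATTGG. The Mcm5 stretch (chr8:75109349-75109508, plus strand) likewise has overlapping E2F words, followed by 2 CCAAT boxes. Cdk1 (chr10:69352913-69353052, minus strand) has both kinds of element, an E2F word upstream and 2 TTTGAA words nearer the start. Cdc20 (chr4:118437344-118437463, minus strand) has TTTGAA between 2 CCAAT boxes. Plk1 (chr7:122159315-122159434, plus strand) has 2 TTTAAA words and a CCAAT box. Mki67 (chr7:135716380-135716499, minus strand) has 2 TTTGAA words with no CCAAT box in the stretch shown. The RefSeq gene reaches further upstream for Mcm5 (from 75109468) and Mki67 (to 135716450), so part of each of these stretches lies inside the gene.

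An E2F word was present in 6 of 14 S phase windows (42.9%), in 1 of 17 mitotic windows (5.88%) and in 2.26% of all 32851 promoter windows of the same length. The 6 S phase genes were Cdc6, Cdt1, Mcm3, Mcm5, Mcm6 and Mcm7, and the mitotic gene was Cdk1. A CHR word was present in 15 of 17 mitotic windows (88.2%), against 4 of 14 S phase windows (28.6%) and 27.6% of all windows. Bub1 and Nusap1 were the 2 mitotic genes without one. TTTGAA alone was in 12 of 17 mitotic windows (70.6%) and in 17.9% of all windows. CCAAT was in 14 of 17 mitotic windows (82.4%), in 9 of 14 S phase windows (64.3%) and in 37.4% of all windows. Of the 16 TTTGAA matches in the mitotic windows, the median position was -18.5 relative to the start. These are matches of letters, with no binding measured here.

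**Figure D1:**
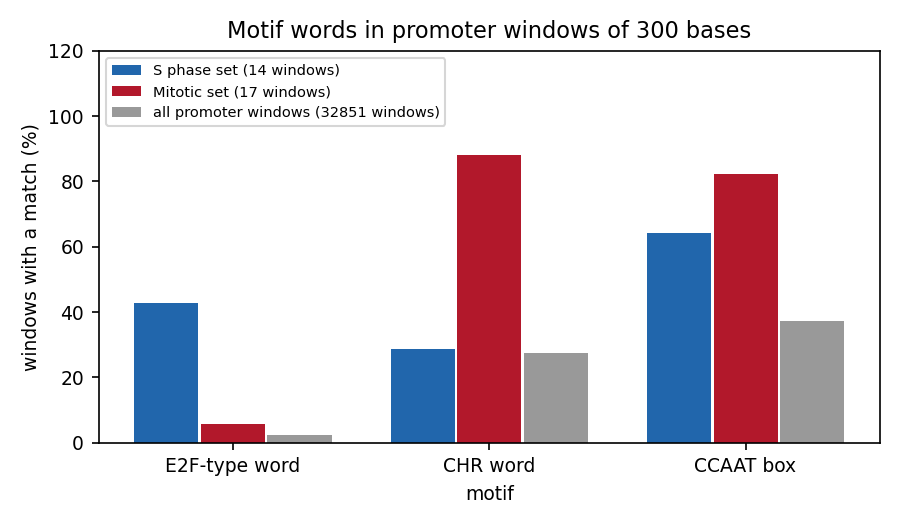
Share of promoter windows of 300 bases (%, vertical axis) with a match to an E2F-type word, a CHR word or a CCAAT box, on either strand, for the S phase set (blue), the mitotic set (red) and all RefSeq windows (grey). E2F words were most frequent in the S phase set (42.9%) and CHR words in the mitotic set (88.2%).

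Total counts were 11002869 to 17184023 per tumor, with a median of 13302488. The member with the lowest count was Gins2, with 47 counts in its lowest tumor. Levels are given as CPM (a count divided by the TMM-scaled library size and brought to a common total), and levels of different genes are compared only per kilobase of exon. All 10 epithelial markers had counts in all 15 tumors. So did all 7 fibroblast and 5 endothelial markers, so detection alone does not check the mammary epithelial label. Epcam, an epithelial adhesion molecule, ranged from 110 to 203 CPM, whereas Krt8, a luminal keratin, ranged from 0.332 to 33.9 CPM.

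Per kilobase of exon, the mitotic set spanned 13.8 CPM per kb (Ndc80) to 127 CPM per kb (Ube2c), with a median of 41.4. The S phase set spanned 4.88 CPM per kb (Gins2) to 76.3 CPM per kb (Mcm3), with a median of 32.4. Ube2c, the ubiquitin-conjugating enzyme of the anaphase-promoting complex, and Top2a, the topoisomerase that untangles sister chromatids (108 CPM per kb), had the highest levels. Mki67, whose protein is the Ki-67 proliferation antigen, followed the helicase genes Mcm3 and Mcm7 (75.9 CPM per kb) at 71.3 CPM per kb. Gins2, a subunit of the replicative helicase, Ccne2, a cyclin of S phase entry (5.82 CPM per kb), and Cdc6, a helicase loader (8.56 CPM per kb), were the lowest.

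For every member except Gins2, more of the variance lay between tumors of the same group than between groups. The highest tumor exceeded the lowest by 1.74-fold for Pcna, the sliding clamp of DNA polymerases, and by up to 3.23-fold for Cdc20, an activator of the anaphase-promoting complex. Within the Sham group alone the ratio of highest to lowest tumor had a median of 1.64 over the S phase set and 1.73 over the mitotic set. In the triple group these medians were 1.78 and 1.75. In the TGFbi group they were 1.18 for both sets, the narrowest of the 5 groups. The share of the variance of a member's log2 CPM that lay between groups had a median of 25.4%, against 32.1% over all 16017 genes tested. Spread between tumors alone also puts variance between the means of groups of 3, so this share is no estimate of a treatment effect. The share was highest for Gins2 (53.8%) and Nusap1 (47.3%) and lowest for Ndc80 (8.70%). The members' SD within groups had a median of 0.33 on the log2 scale, close to the 0.34 of all tested genes.

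**Figure D2:**
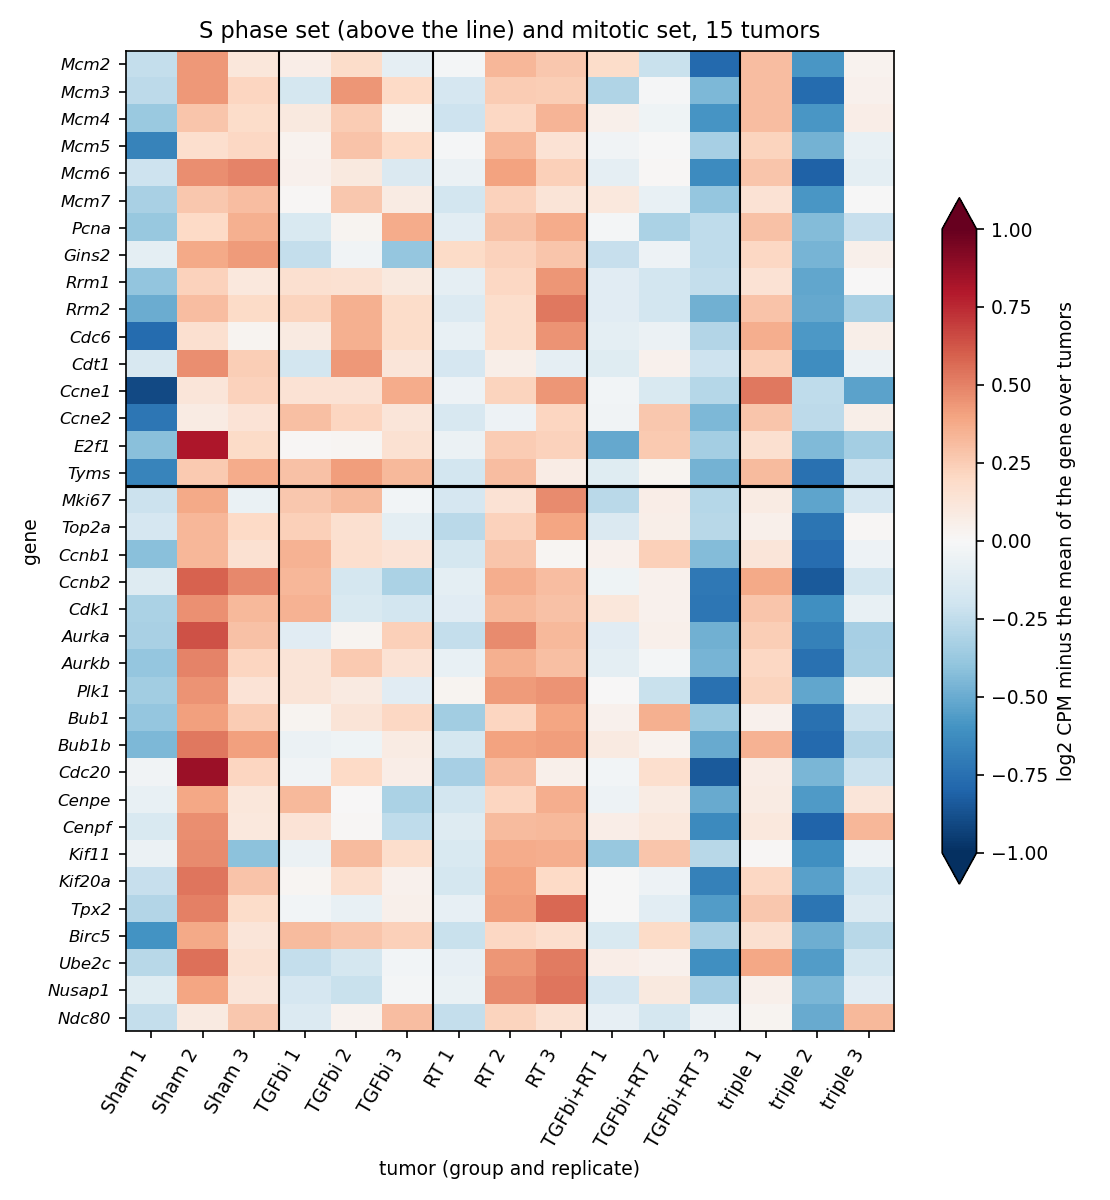
Level of each of the 36 members (rows; S phase set above the line, mitotic set below) in each of the 15 tumors (columns, grouped by treatment), as log2 CPM minus the gene's mean over tumors. Sham 1, TGFbi+RT 3 and triple 2 are low across nearly all rows, and Sham 2, RT 2 and RT 3 are high.

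The same few tumors were low for both sets. Triple replicate 2 was the lowest of 15 tumors for 23 of 36 members, TGFbi+RT replicate 3 for 7, Sham replicate 1 for 5 and TGFbi+RT replicate 1 for 1. Triple 2 was among the 4 lowest tumors for 36 of 36 members, TGFbi+RT 3 for 35 and Sham 1 for 29. Sham replicate 2 was the highest tumor for 16 members and RT replicate 3 for 10. Thus the untreated group held both a tumor with low and a tumor with high levels of both sets. The same counts over all tested genes were not made. Over all tested genes, triple 2 and TGFbi+RT 3 also agreed least with their own groups. Their Spearman correlations were 0.923 and 0.933 for triple 2, and 0.936 and 0.928 for TGFbi+RT 3.

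The pairwise correlation of log2 CPM over the 15 tumors had a median of 0.77 among the S phase genes (120 pairs), 0.79 among the mitotic genes (190 pairs) and 0.75 between the sets (320 pairs). Over all pairs of tested genes the median was -0.00248. With the group means removed, the medians for the members were 0.83, 0.84 and 0.80. These are descriptions over 15 tumors that share library depth and tissue make-up. Ndc80, a kinetochore protein that binds microtubules, followed its set least (median correlation 0.55), then Gins2 (0.60) and Kif11, the kinesin that pushes spindle poles apart (0.65). Aurkb, the kinase of the chromosomal passenger complex, and Mcm4 followed theirs most (0.87 for each).

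The helicase genes Mcm2 to Mcm7 encode the ring that unwinds DNA at the fork. Mcm6 stood at 159, 253 and 257 CPM in the Sham tumors, 188, 195 and 166 in TGFbi, 176, 242 and 216 in RT, 172, 184 and 118 in TGFbi+RT, and 222, 105 and 171 in the triple group (replicates 1 to 3 in each). Sham 1 lay inside the range of the TGFbi+RT tumors, so the groups overlapped. Mcm2 gave 118, 188 and 151 CPM in Sham and 159, 120 and 81.6 in TGFbi+RT, and Mcm3 gave 179, 290 and 249 against 174, 213 and 157. The other 3 helicase genes ranged over the 15 tumors from 142 to 271 CPM (Mcm4), from 65.7 to 131 (Mcm5) and from 120 to 222 (Mcm7). Mcm5 was the one helicase gene whose lowest tumor was Sham 1.

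Rrm1 and Rrm2 are the subunits of ribonucleotide reductase, which makes deoxynucleotides, and Tyms makes thymidylate. Rrm2 stood at 71.6, 125 and 115 CPM in Sham, 117, 129 and 114 in TGFbi, 91.9, 114 and 145 in RT, 93.1, 89.0 and 72.1 in TGFbi+RT, and 123, 70.6 and 80.5 in the triple group. All 3 TGFbi+RT tumors were below all 3 TGFbi tumors, while Sham 1 was below all 3 TGFbi+RT tumors. Rrm1 stood at 102, 156 and 143 CPM in Sham, 149, 148 and 143 in TGFbi, 125, 154 and 181 in RT, and 123, 117 and 113 in TGFbi+RT. The TGFbi+RT tumors were below every RT and every TGFbi tumor for Rrm1, and Sham 1 was again the lowest of those 4 groups. Tyms gave 48.4, 91.8 and 99.5 CPM in Sham, 94.1, 102 and 96.2 in TGFbi, and 70.5, 78.1 and 55.3 in TGFbi+RT. Its TGFbi+RT tumors likewise sat below all TGFbi tumors and inside the Sham range. Of all tested genes, 5.04% had all TGFbi+RT tumors below all TGFbi tumors, and 8.29% had them below all RT tumors.

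Cdc6 and Cdt1 load the helicase onto origins, and E2f1, Ccne1 and Ccne2 drive entry into S phase. Cdc6 stood at 23.1, 43.9 and 40.1 CPM in Sham, 41.8, 50.2 and 44.5 in TGFbi, 37.4, 44.4 and 53.7 in RT, 36.8, 37.8 and 32.1 in TGFbi+RT, and 50.6, 26.4 and 40.9 in the triple group. For Cdc6 the lowest of all tumors was Sham 1. E2f1 gave 25.6, 59.8 and 38.9 CPM in Sham and 38.1, 25.1 and 27.0 in the triple group, with Sham 1 beside the 2 low triple tumors. Ccne1 ranged from 14.1 CPM (Sham 1) to 38.0 (triple 1), Ccne2 from 11.2 (Sham 1) to 22.6 (TGFbi 1), and Cdt1 from 29.4 (triple 2) to 62.6 (Sham 2). Ccne2 shares 1734 of its 3217 exon bases with Ints8 on the other strand, and the strand setting of the counting is not given in the sources used here, so reads of the pair may be mixed. Gins2 stood at 4.65, 6.47 and 6.68 CPM in Sham, 4.22, 4.86 and 3.80 in TGFbi, 5.68, 5.84 and 6.04 in RT and 4.24, 4.80 and 4.18 in TGFbi+RT. Its 3 TGFbi+RT tumors were below all 3 RT tumors, as for 8.29% of all tested genes. Pcna ranged from 48.8 to 85.0 CPM.

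Among the mitotic regulators, Cdk1 with the B cyclins Ccnb1 and Ccnb2 forms the kinase that starts mitosis, and Plk1, Aurka and Aurkb are mitotic kinases of spindle assembly and chromosome attachment. Plk1 stood at 61.3, 107 and 85.6 CPM in Sham, 85.5, 82.9 and 72.1 in TGFbi, 79.3, 105 and 107 in RT, 78.1, 67.0 and 46.4 in TGFbi+RT, and 91.0, 54.3 and 79.0 in the triple group. Each TGFbi+RT tumor was below each RT tumor for Plk1, though TGFbi+RT 1 and RT 1 were close. The same held for 8.29% of all tested genes. Aurka gave 75.0, 146 and 115 CPM in Sham and 111, 58.8 and 74.6 in the triple group. Ccnb2 gave 87.5, 144 and 134 CPM in Sham and 120, 85.0 and 76.9 in TGFbi, with Sham 1 again inside the treated range. Cdk1 ranged from 71.1 to 162 CPM, Ccnb1 from 44.1 to 95.3 and Aurkb from 51.3 to 121.

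Cdc20, Bub1 and Bub1b belong to the spindle checkpoint, which holds anaphase until chromosomes are attached. Cdc20 stood at 104, 192 and 123 CPM in Sham, 104, 122 and 111 in TGFbi, 84.3, 132 and 110 in RT, 104, 119 and 59.4 in TGFbi+RT, and 112, 77.3 and 91.4 in the triple group. Its Sham mean rested on Sham 2, the highest of the 15 tumors, and the 2 other Sham tumors were close to most treated ones. Bub1 ranged from 60.5 to 135 CPM and Bub1b from 124 to 306. Ube2c, which acts with Cdc20 in anaphase, ranged from 75.0 to 168 CPM.

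Kif11, Kif20a, Tpx2 and Nusap1 work on spindle microtubules, and Cenpe, Cenpf and Ndc80 at kinetochores. Nusap1 stood at 71.0, 101 and 83.8 CPM in Sham, 68.6, 66.0 and 76.2 in TGFbi, 73.5, 107 and 112 in RT, and 68.6, 82.8 and 61.3 in TGFbi+RT. Its 2 highest tumors of those were RT 2 and RT 3, while RT 1 lay inside the TGFbi+RT range. Kif20a gave 92.3, 157 and 132 CPM in Sham and 108, 105 and 67.8 in TGFbi+RT, and it shares 1115 of 3905 exon bases with Cdc23 on the other strand. The ranges were 125 to 266 CPM for Kif11, 119 to 296 for Tpx2, 119 to 230 for Cenpe, 113 to 272 for Cenpf and 21.1 to 37.5 for Ndc80. Mki67 stood at 608, 915 and 672 CPM in Sham, 850, 879 and 693 in TGFbi, 628, 780 and 980 in RT, 586, 739 and 578 in TGFbi+RT, and 746, 489 and 627 in the triple group. Birc5, the survivin gene of the passenger complex, gave 70.3, 68.3 and 66.6 CPM in TGFbi and 50.8, 64.4 and 45.1 in TGFbi+RT. These groups did not overlap, and 5.04% of all tested genes likewise had all TGFbi+RT tumors lower. In Sham, Birc5 gave 37.3, 73.5 and 61.5 CPM. Top2a ranged from 335 to 731 CPM.

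Each treatment was compared with Sham, to ask whether it left the tumors with less or more RNA of dividing cells. The models were edgeR quasi-likelihood fits over all 15 tumors, with p-values adjusted by Benjamini-Hochberg across the 16017 genes tested, and a gene passed at an adjusted p under 0.05. No member passed in any comparison. The background was as sparse: edgeR called 0.00624% of tested genes (1 gene) for TGFbi against Sham and 0% in each other comparison, including the test for any difference among the 5 groups. At an unadjusted p under 0.05 it had 1359 genes for TGFbi, 672 for RT, 2409 for TGFbi+RT and 2385 for the triple group against Sham, and no member was among them. DESeq2 called 127, 1, 488 and 619 genes in these comparisons and limma-voom called 0 in each, again with no member. In the comparisons that follow, 970 genes (TGFbi+RT against TGFbi), 1541 (against RT), 318 (triple against TGFbi+RT) and 608 (interaction) had an unadjusted p under 0.05 by edgeR. So did 1729 in the test for any difference. Members of a set rose and fell together over the tumors, so counts of members above or below 0 are not separate observations. Of the 16017 genes tested, 8227 were below 0 for TGFbi, 8174 for TGFbi+RT and 8086 for the triple group against Sham. For TGFbi+RT against TGFbi 7413 were, and for the interaction 7477.

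With TGFbi alone, the S phase set had a median log2 fold change of 0.05 (11 of 16 members above 0) and the mitotic set of -0.14 (14 of 20 below 0), against Sham. Gins2 had the smallest p, with a log2 fold change of -0.46 ± 0.23 (SE) and adjusted p = 0.610, and next in its set was Cdc6 with 0.35 ± 0.26 (adjusted p = 0.755). In the mitotic set these were Nusap1 with -0.28 ± 0.19 (adjusted p = 0.736) and Ccnb2 with -0.37 ± 0.31 (adjusted p = 0.789). The median of the S phase set ran from -0.13 without Sham 1 to 0.19 without Sham 2, and that of the mitotic set from -0.29 to 0.03 over the tumors left out. Neither set therefore kept a sign.

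Radiation alone gave medians of 0.08 (S phase set) and 0.01 (mitotic set) against Sham, and both changed sign with the tumor left out, from -0.10 to 0.21 and from -0.14 to 0.20. Cdc6 had a log2 fold change of 0.34 ± 0.26 and Cdt1 of -0.27 ± 0.22, and among mitotic genes Cdc20 had -0.36 ± 0.28 and Nusap1 0.19 ± 0.19 (adjusted p = 0.999 for each). At day 7 no 95% interval of a member reached a change of 1 log2 unit in either direction. The names of the RT libraries hold the code A2304 and those of the Sham libraries A2301, and the labels do not say what the code stands for. RT and Sham cannot be compared within 1 code. When the code was added to the model, where only the triple group has both codes, the medians were 0.60 and 0.53.

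TGFbi+RT had lower medians than Sham, of -0.26 in the S phase set (15 of 16 members below 0) and -0.30 in the mitotic set (20 of 20 below 0). The median over all tested genes was -0.01. Cdc20 had the smallest p, with a log2 fold change of -0.56 ± 0.28, a 95% interval of -1.16 to 0.04 and adjusted p = 0.355. Kif20a had -0.44 ± 0.25 (adjusted p = 0.406), Gins2 -0.43 ± 0.23 (adjusted p = 0.389) and Mcm6 -0.50 ± 0.27 (adjusted p = 0.394). No interval reached an increase of 1 log2 unit, and a decrease of 1 log2 unit lay inside the interval of 2 of 16 S phase genes and 3 of 20 mitotic genes. Both groups carry the code A2301. The medians were -0.47 and -0.46 without Sham 1 and -0.13 and -0.15 without Sham 2, and without both TGFbi+RT 3 and triple 2 they were -0.15 and -0.18.

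The counts of separated members depended on Sham 1. With all tumors, 0 of 16 S phase and 0 of 20 mitotic members had all 3 TGFbi+RT tumors below all 3 Sham tumors, while 7.61% of all tested genes did. Without Sham 1, 13 of 16 and 15 of 20 did, against 19.8% of all genes. In the triple group the counts were also 0 and 0 (7.15% of all genes), and 5 of 16 and 11 of 20 without Sham 1 (19.9%). Without TGFbi+RT 2 the TGFbi+RT counts were 2 and 2, beside 13.7% of all genes, and without triple 1 those of the triple group were 0 and 3, beside 14.1%, so these shares are near the background. Leaving out any other tumor of these groups gave 0. Leaving out Sham 1 was added after its values had been seen, and it is a labelled Sham tumor like the others.

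The triple group had medians of -0.18 (13 of 16 below 0) and -0.29 (20 of 20 below 0) against Sham. Cdc20 had a log2 fold change of -0.58 ± 0.28 (adjusted p = 0.353), Aurka -0.46 ± 0.28 (adjusted p = 0.459), E2f1 -0.46 ± 0.28 (adjusted p = 0.464) and Mcm6 -0.43 ± 0.27 (adjusted p = 0.470). The medians rested in part on triple 2, without which they were -0.00 and -0.11, and without triple 1 they were -0.42 and -0.51. Triple 2 and 3 carry the code A2304 and the Sham libraries A2301, and with the code in the model the S phase median turned to 0.19, and 13 of 36 members were below 0 in place of 33. The comparisons of TGFbi+RT and of the triple group share the 3 Sham tumors, so they are not independent.

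**Figure D3:**
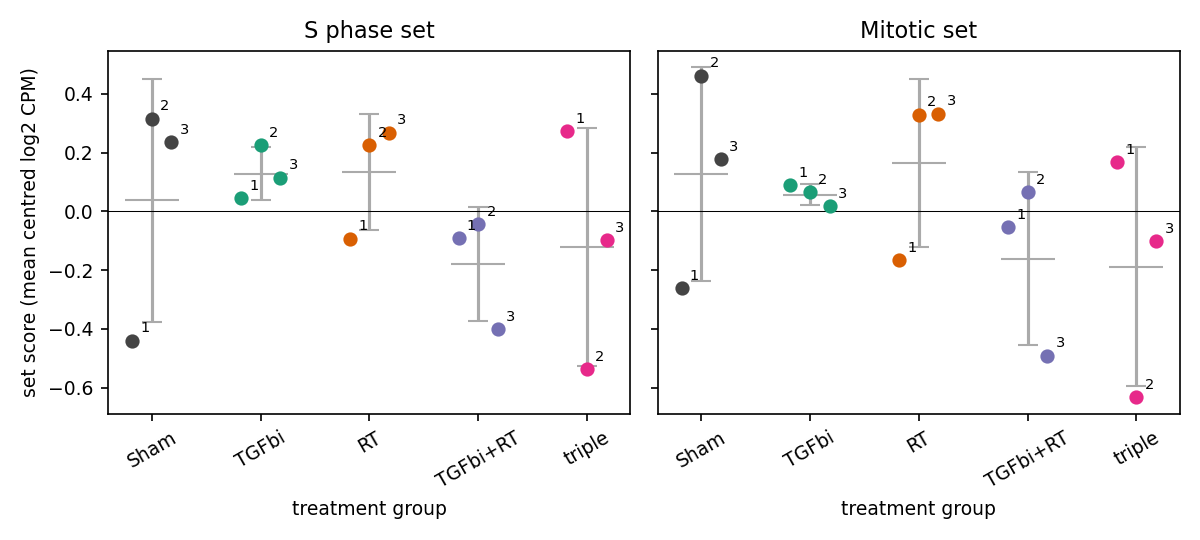
Set score of each tumor (vertical axis: log2 CPM minus the gene's mean over tumors, averaged over the set) by treatment group for the S phase set (left) and the mitotic set (right). Points are tumors with their replicate numbers, and grey bars are the mean ± SD of 3 tumors. In the S phase panel Sham 1 (-0.44) lies below all 3 TGFbi+RT tumors.

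The set scores show the same spread in 1 value per tumor. For the mitotic set they were -0.26, 0.46 and 0.18 in Sham, 0.09, 0.07 and 0.02 in TGFbi, -0.17, 0.33 and 0.33 in RT, -0.05, 0.06 and -0.49 in TGFbi+RT, and 0.17, -0.63 and -0.10 in the triple group. For the S phase set the TGFbi+RT tumors had -0.09, -0.04 and -0.40, against 0.04, 0.23 and 0.11 in TGFbi. The pooled SD within groups was 0.29 for the S phase set and 0.31 for the mitotic set, as large as the medians of TGFbi+RT against Sham.

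Next, TGFbi+RT was compared with each of its components. Against TGFbi the medians were -0.29 (15 of 16 below 0) and -0.21 (18 of 20 below 0). Rrm2 had a log2 fold change of -0.51 ± 0.24, Tyms -0.52 ± 0.28 (adjusted p = 0.789 for both), Mki67 -0.35 ± 0.22 (adjusted p = 0.804) and Birc5 -0.36 ± 0.24 (adjusted p = 0.815). Here 6 of 16 S phase members (Ccne1, Cdc6, Mcm5, Rrm1, Rrm2 and Tyms) and 3 of 20 mitotic members (Aurkb, Birc5 and Kif20a) had all TGFbi+RT tumors below all TGFbi tumors, beside 5.04% of all tested genes. With 1 tumor left out the counts ran from 6 to 10 (the highest without TGFbi+RT 1, beside 11.5% of all genes) and from 3 to 8 (the highest without TGFbi+RT 2, beside 11.1%). The mitotic median was -0.08 without TGFbi+RT 3, which is a resubmitted library, as is TGFbi 3.

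Against RT, the medians were -0.36 (16 of 16 below 0) and -0.33 (20 of 20 below 0), while 7974 of the 16017 genes tested were below 0. Plk1 had a log2 fold change of -0.60 ± 0.25, a 95% interval of -1.14 to -0.07, unadjusted p = 0.030 and adjusted p = 0.482 by edgeR. Nusap1 had -0.46 ± 0.19 (unadjusted p = 0.034, adjusted p = 0.486 by edgeR). In the fit to all 15 tumors these were the only 2 members at an unadjusted p under 0.05 in any comparison, and neither passed after adjustment. That count was 5 without RT 1, beside 2226 genes of all tested, and 0 without RT 2, RT 3 or TGFbi+RT 3. With the library code in the model it was 18, beside 1847 genes. For TGFbi+RT against Sham it was 9 without Sham 1, beside 3012 genes. For the triple group against Sham it was 8 without Sham 1 and 10 without triple 1, beside 3446 and 3336 genes. Each of these fits had 0 members past the adjusted threshold by edgeR. Rrm1 had -0.38 ± 0.19 (adjusted p = 0.538) and Rrm2 -0.46 ± 0.24 (adjusted p = 0.542). All TGFbi+RT tumors were below all RT tumors for 2 of 16 S phase members (Gins2 and Rrm1) and 1 of 20 mitotic members (Plk1). With 8.29% of all genes doing so, these counts are near the background. Without RT 1 the counts were 13 of 16 and 16 of 20, beside 18.2% of all genes. Without TGFbi+RT 2 they were 7 and 5, beside 14.3%, and without TGFbi+RT 1 they were 6 and 2, beside 16.6%. The medians ran from -0.47 to -0.23 and from -0.48 to -0.19 with 1 tumor left out. The 2 groups also differ in library code, and adding the code to the model gave medians of -0.90 and -0.77.

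**Figure D4:**
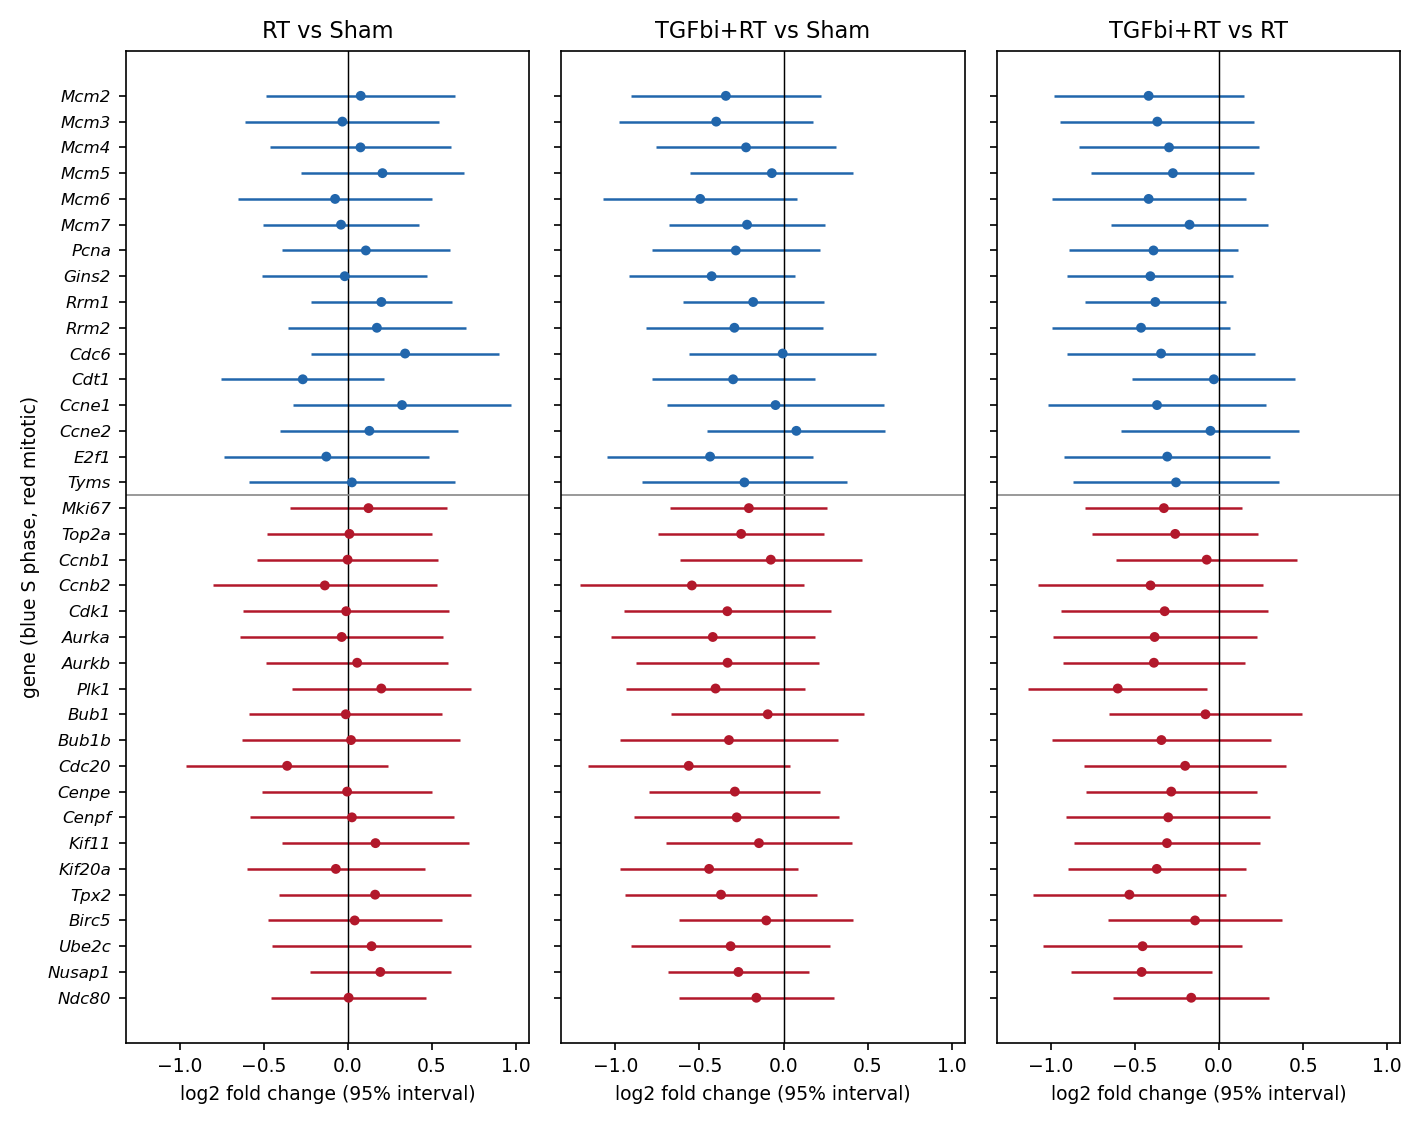
Log2 fold change of each member (points) with its 95% interval (lines) from the edgeR fit, for RT against Sham, TGFbi+RT against Sham and TGFbi+RT against RT; blue marks the S phase set and red the mitotic set. Points of the last 2 panels lie mostly left of 0, and only the intervals of Plk1 and Nusap1 against RT exclude 0.

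Adding the PD-L1 antibody was read from the triple group against TGFbi+RT, where the medians were 0.09 and -0.02 and ran from -0.15 to 0.25 and from -0.21 to 0.16 with 1 tumor left out. Mcm2 had a log2 fold change of 0.18 ± 0.26, Mcm3 0.17 ± 0.27, Plk1 0.23 ± 0.25 and Bub1 -0.31 ± 0.27, each with adjusted p = 1.000. No interval of a member reached 1 log2 unit in either direction. Triple 2 and 3 differ in library code from TGFbi+RT, and with the code in the model the S phase median was 0.48 and 0 of 36 members were below 0, in place of 14. The interaction asks whether both treatments together differ from the sum of their separate log2 changes. Its medians were -0.38 (14 of 16 below 0) and -0.19 (19 of 20 below 0), and the mitotic median ran from -0.36 to -0.05 with 1 tumor left out. Rrm2 was at -0.68 ± 0.35, Cdc6 at -0.70 ± 0.36, Mki67 at -0.47 ± 0.30 and Plk1 at -0.53 ± 0.35 (adjusted p = 1.000 for each). A decrease of 1 log2 unit lay inside the interval of 11 of 16 and 10 of 20 members, so this contrast was the least precise.

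Foxm1, Mybl2 and Ccna2, which the rule for named genes always includes, were low in Sham 1, TGFbi+RT 3 and triple 2. Of the 14 E2F and MuvB regulators, which include Foxm1 and Mybl2, 6 were above and 8 below 0 for TGFbi+RT against Sham (median -0.04), and of 10 genes of G1 control 5 were above and 5 below (median 0.02). Foxm1 stood at 116, 231 and 145 CPM in Sham, 159, 154 and 142 in TGFbi, 133, 176 and 163 in RT, 129, 175 and 96.9 in TGFbi+RT, and 169, 89.0 and 128 in the triple group. Mybl2 gave 28.8, 65.5 and 50.3 CPM in Sham, 38.6, 47.4 and 26.5 in TGFbi+RT, and 46.4, 22.7 and 28.2 in the triple group. Ccna2, the cyclin of S and G2 phase, gave 181, 333 and 275 CPM in Sham and 229, 246 and 152 in TGFbi+RT. Against Sham, TGFbi+RT had log2 fold changes of -0.30 ± 0.28 for Foxm1 (adjusted p = 0.631), -0.36 ± 0.34 for Mybl2 (adjusted p = 0.626) and -0.33 ± 0.28 for Ccna2 (adjusted p = 0.588).

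Cdkn1a, the p21 inhibitor of cyclin-dependent kinases, stood at 39.1, 12.1 and 17.4 CPM in Sham, 35.0, 15.9 and 20.9 in TGFbi, 34.9, 14.9 and 15.0 in RT, 30.1, 40.5 and 95.1 in TGFbi+RT, and 21.8, 125 and 40.4 in the triple group. Its 2 highest tumors, triple 2 and TGFbi+RT 3, were those with the lowest mitotic sums, and Sham 1 was the highest Sham tumor. The log2 fold change was 1.27 ± 0.67 for TGFbi+RT (adjusted p = 0.382) and 1.44 ± 0.67 for the triple group (adjusted p = 0.337) against Sham. Rb1, the retinoblastoma repressor of E2F, gave 69.6 CPM in TGFbi+RT 3 and 59.4 in triple 2, against 20.9 to 34.2 in the other tumors. Its log2 fold change for TGFbi+RT against Sham was 0.81 ± 0.36 (unadjusted p = 0.043, adjusted p = 0.315 by edgeR).

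Of 24 further replication genes, 0 passed for TGFbi+RT against Sham, with 20 of 24 below 0 and a median of -0.20. Lig1, the ligase of lagging strand synthesis, had -0.21 ± 0.18, Slbp, which binds histone mRNA, -0.00 ± 0.15 and Fen1, the flap nuclease, 0.04 ± 0.23. Of 22 further mitotic genes, 0 passed, 20 of 22 were below 0 and the median was -0.27, with Spc24, a partner of Ndc80, at -0.60 ± 0.31 (adjusted p = 0.375). Against TGFbi, 12 of the 24 further replication genes had all TGFbi+RT tumors lower, and 1 of the 22 further mitotic genes did, beside the 5.04% of all genes given above. Against RT (8.29% of all genes) and against Sham (7.61%), 0 of 24 and 0 of 22 did. Of the 10 genes of G1 control, 7 kinase inhibitors, 14 E2F and MuvB regulators and 9 checkpoint genes, 0 passed in these comparisons.

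Replication-dependent histone genes, whose RNA is made mainly in S phase, were kept in these rRNA-depleted libraries, and 61 of 63 were tested. For TGFbi+RT against Sham the histone median was -0.63 on the log2 scale, with 60 of 61 below 0, 21 of them at an unadjusted p under 0.05 and 0 past the adjusted threshold. Of all 16017 genes tested, 846 were lower at that unadjusted p. All TGFbi+RT tumors were below all Sham tumors for 0 of 61 histone genes, beside 7.61% of all genes. The histone sums were 8044, 15034 and 12872 CPM in Sham and 8248, 9768 and 5217 CPM in TGFbi+RT. Sham 1 thus lay inside the TGFbi+RT range, and TGFbi+RT 3 was the lowest of these tumors. The histone median was -0.65 against TGFbi, where 37 of 61 had all TGFbi+RT tumors lower (5.04% of all genes). Against RT it was -0.54, where 12 of 61 did (8.29% of all genes). The triple group had -0.50 against Sham, with 58 of 61 below 0 and 1 of 61 with all triple tumors lower (7.15% of all genes). These genes are near-identical copies in clusters, so reads can be shared between them and they are not separate observations.

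The tumors also differed in markers of other cell types, not in 1 common order. The 14 leukocyte markers summed to 72.0 to 267 CPM in the Sham tumors, 154 to 329 in TGFbi, 98.1 to 578 in RT, 289 to 1193 in TGFbi+RT and 306 to 1641 in the triple group. The highest sums were those of triple 2 (1641 CPM) and TGFbi+RT 3 (1193 CPM), where 13 and 12 of the 14 markers were among the 4 highest tumors, while Sham 1, also low for the members, had 267 CPM. In all 3 Sham tumors Cd3d was at 0 counts and in all 3 TGFbi tumors Cd8a was. The 7 fibroblast markers, all with counts in every tumor, summed to 7921 CPM in triple 2, 7856 in Sham 1 and 7808 in RT 1, against 523 in Sham 2 and 616 in Sham 3. Over the groups, the fibroblast sums were 523 to 7856 CPM in Sham, 1820 to 3442 in TGFbi, 755 to 7808 in RT, 1465 to 3933 in TGFbi+RT and 1437 to 7921 in the triple group.

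Sham 1 and RT 1, the lowest tumors of their groups for 35 and 36 of the 36 members, also had the highest endothelial sums, of 555 and 518 CPM against 93.8 to 396 in the other tumors. The epithelial sums ranged from 554 to 1710 CPM, with 1070 in Sham 1, 807 in triple 2 and 753 in TGFbi+RT 3. Sham 1 was among the 4 highest tumors for 7 of 10 epithelial markers, triple 2 also for 7 and TGFbi+RT 3 for 6. In triple 2 and TGFbi+RT 3 the ranks of single markers thus differed from the low sums. The 5 adipocyte markers summed to 11.6 to 96.7 CPM in Sham, up to 277 in TGFbi, 11.0 to 149 in RT, 68.8 to 514 in TGFbi+RT and 150 to 444 in the triple group, highest in TGFbi+RT 3 and triple 2. Adipoq was at 0 counts in all 3 Sham tumors, and 4 of 5 adipocyte markers had all TGFbi+RT tumors, and 4 of 5 all triple tumors, above all Sham tumors, as did 1719 and 1508 of the 16017 genes tested. The part of these markers in the levels of the S phase and mitotic genes was not tested. Of the 2 tumors with the most leukocyte RNA, triple 2 and TGFbi+RT 3, neither is a Sham or RT tumor.

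**Figure D5:**
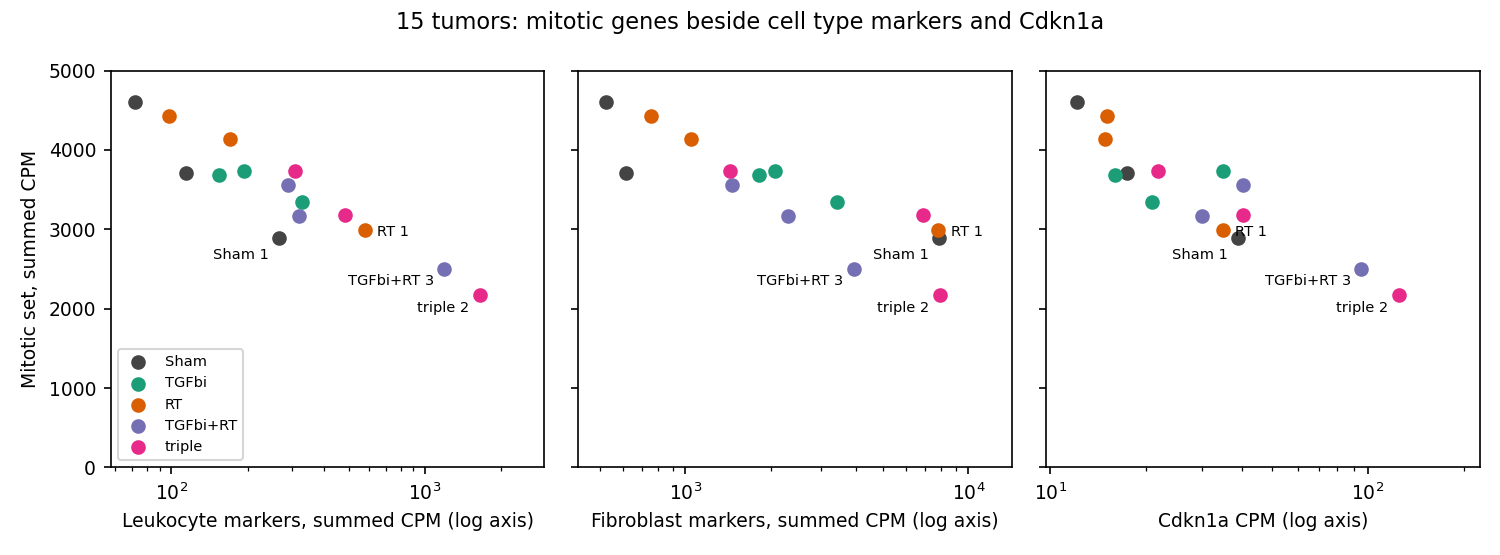
Summed CPM of the 20 mitotic genes (vertical axis) in 15 tumors against summed CPM of leukocyte markers (left), summed CPM of fibroblast markers (middle) and CPM of Cdkn1a (right), on log horizontal axes, coloured by group. The tumors with the lowest mitotic sums, triple 2 (2170 CPM) and TGFbi+RT 3 (2505 CPM), have the highest leukocyte sums and Cdkn1a levels, and Sham 2 (4603 CPM) the lowest.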

How the data were processed

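RNA of 15 tumors and 1 internal reference library was sequenced after ribosomal depletion, per the labels' protocols. The authors deposited fragment counts per Entrez gene, with no normalization, on the build GRCm38 per the submitters' processing notes, and the column names in the file header mention Subread. The aligner settings, strand setting and annotation release are not given in the sources used here. The deposited annotation adds other values, the exon coordinates and summed exon length of each gene. Symbols were matched for 25275 of 27179 genes.

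Counts were analysed in R 4.3.3 with edgeR 4.0.16: filterByExpr on the 5 groups kept 16017 genes, TMM factors were 0.919 to 1.05, and a quasi-likelihood model with 1 mean per group was fitted to all 15 tumors (10 residual degrees of freedom). The 8 comparisons and the F test were adjusted by Benjamini-Hochberg at 0.05. Total counts were 11002869 to 17184023 per tumor. The tumors are separate mice, so p-values measure the spread between mice.

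Fold changes were named for the 2 members of each set with the smallest unadjusted p in a comparison, and for up to 3 genes of each further list. Foxm1, Mybl2, Ccna2 and Cdkn1a were always included. The members and lists were chosen with earlier results of these data known, so no list is given a test. Alternatives were DESeq2 1.42.0, limma-voom (limma 3.58.1), RLE factors, no filter, the compared groups alone, a replicate block, a library code term and leaving libraries out. Counts of non-overlapping genes with a tumor left out were added after seeing the data. The scripts were tested on simulated data. The main fit did not pair tumors by replicate number, as the labels give no such design. Same-numbered tumors of different groups correlated in their deviations from -0.58 to 0.67. The same correlations were not computed for differently numbered tumors, so these values cannot decide on pairing.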

Additional observations from a re-analysis of the deposited data

How the results depend on the processing

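No member passed the threshold in any of the 149 pairs of an alternative setting and a comparison, many of which share a fit. The smallest adjusted p of a member among them was 0.166. Of the set medians, 244 of the alternative values moved by less than the spread within groups and 8 moved by more. That spread (0.29 for the S phase set and 0.31 for the mitotic set) is as large as many of the medians. A median could thus change sign and still count as moved by less, as those of TGFbi and of RT against Sham did. Of the named members' fold changes, 497 kept their direction and 7 reversed.

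The library code as a term moved the S phase and mitotic medians to 0.60 and 0.53 for RT against Sham, to -0.90 and -0.77 for TGFbi+RT against RT and to -0.90 and -0.77 for the interaction. It moved the S phase median to 0.19 for the triple group against Sham and to 0.48 against TGFbi+RT, and reversed Cdt1 (0.29) and Cdc20 (0.048) for RT against Sham and Bub1 (0.00254) for triple against TGFbi+RT. Only the triple group spans both codes, so this term rests on triple 1 against triple 2 and 3. For triple against TGFbi+RT, Mcm2 was -0.031 without the 2 resubmitted libraries, and with 1 tumor left out it ran from -0.040 to 0.44 and Mcm3 from -0.075 to 0.43.

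DESeq2 called 127 genes for TGFbi, 1 for RT, 488 for TGFbi+RT and 619 for triple against Sham. It called 3 for TGFbi+RT against TGFbi, 63 against RT, 1 for triple against TGFbi+RT, 3 for the interaction and 656 for any difference. For TGFbi against Sham, limma-voom, the compared groups alone, the replicate block and the fit without the resubmitted libraries called 0 genes in place of 1, and leaving out 1 tumor gave 0 to 5. For any difference the count was 1 without both TGFbi+RT 3 and triple 2, and 0 to 1 with 1 tumor left out. For triple against Sham it was 0 to 4. The replicate block changed no other call. The cause of these moves was not tested. The lowest count of a member in a tumor was 47 (Gins2).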

Other observations

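The internal reference library, which the labels place in no treatment group and do not describe further, had 9003730 counts. On CPM without TMM factors, 28 of the 36 members were lower in it than in the lowest of the 15 tumors: 11 of 16 S phase genes and 17 of 20 mitotic genes. Top2a was at 212 in the reference library and at 350 to 710 in the tumors, and Bub1b at 64.1 against 130 to 284. Mcm5 (104), Gins2 (6.11) and Rrm1 (126) lay inside the range of the tumors. No member was above the highest Sham tumor in this library. The same counts over all genes were not made, so these values are not read as particular to the members.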
